A study of Mus musculus with 89 samples.

Results

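Clca4a, Clca4b and the pseudogene Clca4c-ps are neighbouring copies of 1 ancestral gene on mouse chromosome 3, and they were followed here along the crypt-villus axis of the jejunum and across its single cell types. The 3 genes were chosen by name, with their high level at the villus tip of these data already known, and they are 3 of 27538 genes in the table of cell clumps and 3 of 23379 genes in the table of single cells. The study left the epithelium of the jejunum incompletely dissociated with EDTA, sorted the attached cells as clumps by DNA content, sorted single cells separately, and sequenced both by MARS-seq, a plate-based method that counts each captured mRNA molecule once near its 3′ end as a unique molecular identifier (UMI). All animals were untreated C57BL/6 mice, labelled 3 months old except for 3 single-cell plates of mouse 2, labelled 4 months.

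The clumps fall into pairs (DNA content 4n) from mice 1 to 5, larger clumps (h4n, above 4n) from mice 1, 4 and 5, and a separate set from mouse 6 sorted only as above 2n (h2n). The single cells came from 4 mice that are numbered apart from the clump mice, and whether the plates of mouse 2, labelled with both ages, came from 1 animal cannot be told. Their plates were sorted with Epcam, CD45 and CD24 antibodies in several gates, some chosen to enrich tuft and enteroendocrine cells, so the shares of cell types are set by the gates. The labels state no gate for some plates of mice 1 and 2, and some plates of mouse 4 are labelled CD54Epcam. Each clump holds several cells, so that fewer cells of a type and less RNA per cell cannot be told apart in it. A zone was given to 5883 clumps of mice 1 to 5, of which 3238 were pairs and 2645 larger clumps. There were 3245 crypt clumps, 1829 mid-villus clumps and 809 villus tip clumps. A mouse gave 137 to 2052 crypt clumps and 38 to 290 tip clumps, and the UMIs behind a tip value ranged from 76705 to 746875 per mouse. The zones came from the enterocyte landmark genes that the study published. Clca4a is one of its tip landmarks, and the Clca4 genes were taken out, so that none of the 3 genes helped to place a clump.

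CLCA proteins (chloride channel accessory) are secreted or surface-bound proteins with a metalloprotease-like domain that cleaves the protein itself, and members of the family are known to increase calcium-activated chloride currents in the cells that carry them. Clca1 is a product of goblet cells and part of intestinal mucus, while Clca4 genes are known from the absorptive epithelium. An unprocessed pseudogene is a gene copy that kept its introns but is not annotated as coding for a protein, and a transcribed one can still give RNA that a sequencing table counts.

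Each of the 3 genes lies on the minus strand of GRCm38, the build that the submitters' processing notes name, and the positions below are those of the GENCODE vM21 annotation of that build. Clca4a (ENSMUSG00000068547.6) spans chr3:144952480-144975045, Clca4b (ENSMUSG00000074195.3) spans chr3:144910921-144932529, and Clca4c-ps (ENSMUSG00000074196.10) spans chr3:144861826-144896011. The longest transcript of each gene has 14 exons, with 3004 bases for Clca4a, 2997 for Clca4b and 2779 for Clca4c-ps. Aligned over their lengths, the transcripts of Clca4a and Clca4b were identical at 95.6% of 2996 bases, Clca4a and Clca4c-ps at 95.4% of 2774, and Clca4b and Clca4c-ps at 94.6% of 2775. The last 120 coding bases of Clca4a and Clca4b and the matching bases of the pseudogene are shown because they lie near the 3′ end, where this method reads, and because they show which positions let a read be assigned to 1 gene. Each stretch is in 1 exon and ends with tga. In the line of Clca4a, capitals mark positions where either of the others has another base, and in the other lines capitals mark the bases that differ from Clca4a. The stretches lie at chr3:144952675-144952794 for Clca4a, chr3:144911110-144911229 for Clca4b and chr3:144861826-144861945 for Clca4c-ps.
Clca4a: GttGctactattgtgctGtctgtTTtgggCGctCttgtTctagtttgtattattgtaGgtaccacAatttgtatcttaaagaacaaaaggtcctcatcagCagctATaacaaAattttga
Clca4b: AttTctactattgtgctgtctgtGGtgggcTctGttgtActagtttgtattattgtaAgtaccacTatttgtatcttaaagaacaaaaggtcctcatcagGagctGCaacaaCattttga
Clca4c-ps: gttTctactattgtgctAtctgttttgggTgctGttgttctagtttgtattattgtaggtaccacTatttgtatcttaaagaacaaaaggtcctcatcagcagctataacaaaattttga
Here Clca4b matched Clca4a at 107 of 120 bases (89.2%), and Clca4c-ps matched Clca4a at 115 of 120 bases (95.8%) and Clca4b at 108. The pseudogene was thus closer to Clca4a than Clca4b was over this stretch, whereas over the whole transcripts the 3 identities ranged from 94.6 to 95.6%.

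How far reads can be shared was measured by taking every run of 66 bases, the read length given in the methods, and asking whether the identical run occurs in another of the 3 transcripts. In the last 500 bases of the Clca4c-ps transcript, 278 of 435 such windows (63.9%) also occurred in Clca4a and 22 (5.06%) in Clca4b. In the last 500 bases of Clca4a, 106 of 435 windows (24.4%) also occurred in Clca4c-ps and 0 in Clca4b. None of the 435 windows at the end of Clca4b occurred in either of the others. The annotated model of Clca4c-ps stops at the position aligned to the stop codon of Clca4a, which itself runs on for 195 bases, and Clca4b for 189. Reads from these shared windows match Clca4a and Clca4c-ps equally, while the last 500 bases of Clca4b were distinct from both. The 100 windows nearest the 3′ end of each transcript occurred in neither of the others. How the authors' counting treated reads that align to several places is not given in the sources used here, so that UMIs of Clca4c-ps and, in smaller part, of Clca4a are uncertain between these 2 genes. The antisense transcript Gm16233 also overlaps 2399 bases of the Clca4a locus on the other strand, and Gm35066 overlaps 2922 bases, but counting was by strand according to the methods.

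**Figure D1:**
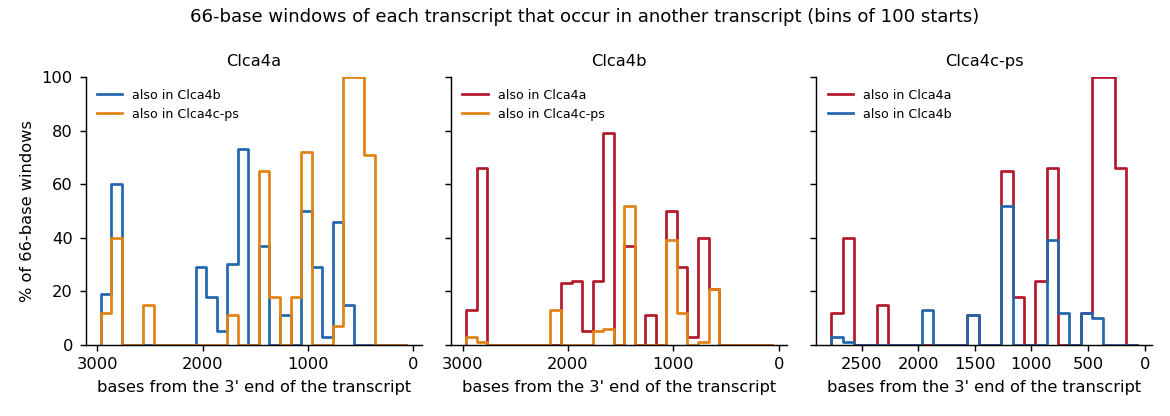
Share of 66-base windows of each Clca4 transcript that occur unchanged in another of the 3 transcripts (y axis, percent of windows in bins of 100 window starts), by distance from the transcript's 3′ end (x axis, bases). The bin nearest the 3′ end holds no shared window in any of the 3 genes. Over the last 500 bases Clca4b has no shared window, whereas 63.9% of the windows of Clca4c-ps also occur in Clca4a.

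Clca4a was very low in the crypt, low at mid-villus and high at the tip. In crypt clumps of mice 1 to 5 it stood at 1.19, 12.7, 28.9, 5.30 and 14.4 counts per 1000000 UMIs of the zone (CPM), the first from 3 UMIs. In mid-villus clumps the same mice had 37.2, 80.2, 231, 50.3 and 162 CPM. In tip clumps they had 1511, 2733, 2379, 2746 and 2255 CPM. The ranges of the 3 zones did not overlap. How many of all genes have zones apart in this way was not counted, here or for the genes below. The means were 12.5 ± 10.6 CPM in the crypt, 112 ± 82.4 at mid-villus and 2325 ± 503 at the tip (SD, n = 5 mice). With each clump thinned to 500 UMIs they were 20.4, 200.3 and 1929 CPM, and with zones set by the largest landmark sum the mid-villus mean was 51.5 CPM. In larger clumps alone the crypt mean was 7.27 CPM. Within a mouse, the tip level was 10.3 to 54.6 times the mid-villus level, with a median of 34.1. Since the genes were chosen for this pattern, the zone levels in clumps are a description and carry no test.

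Clca4b rose earlier along the axis. It had 109, 96.5, 213, 101 and 133 CPM in the crypt clumps of mice 1 to 5, 728, 852, 1268, 807 and 517 CPM at mid-villus, and 974, 1902, 1731, 1930 and 1330 CPM at the tip. Crypt and villus did not overlap, but the highest mid-villus value, that of mouse 3, lay above the tip value of mouse 1. The means were 131 ± 48.3, 834 ± 274 and 1573 ± 412 CPM (SD, n = 5 mice). Within a mouse, mid-villus was 3.90 to 8.82 times the crypt and the tip only 1.34 to 2.57 times mid-villus, so that most of the rise in fold lay between crypt and mid-villus.

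Clca4c-ps had the lowest level of the 3 in every zone on average and the steep profile of Clca4a. Its crypt values were 1.19, 2.54, 2.79, 2.92 and 0 CPM, resting on 3, 2, 8, 55 and 0 UMIs. At mid-villus it had 22.3, 41.2, 59.4, 25.1 and 55.8 CPM, and at the tip 410, 816, 568, 534 and 587 CPM. The zones did not overlap, with means of 1.89 ± 1.26, 40.8 ± 17.0 and 583 ± 147 CPM (SD, n = 5 mice). Thinned to 500 UMIs they were 3.98, 63.7 and 567 CPM, by the largest landmark sum the mid-villus mean was 24.3 CPM, and in larger clumps alone the tip mean was 367 CPM. Within a mouse the tip was 9.55 to 21.2 times mid-villus, with a median of 18.3. The 5 mice came from several plates each, and the plates varied: over plates with at least 5 tip clumps, Clca4a ranged from 143 to 2318 CPM over the 7 plates of mouse 1 and from 1653 to 4052 CPM over the 10 plates of mouse 2.

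**Figure D2:**
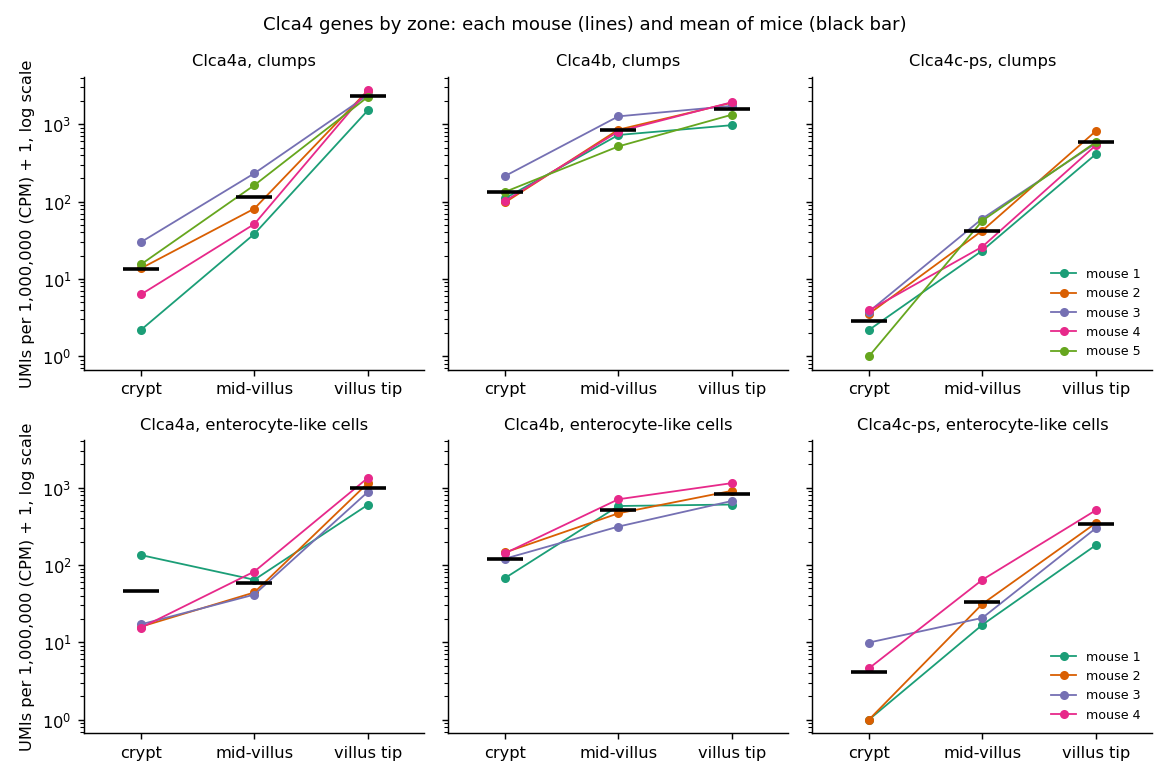
Level of Clca4a, Clca4b and Clca4c-ps (y axis, CPM + 1, log scale) in crypt, mid-villus and villus tip clumps of mice 1 to 5 and in enterocyte-like single cells of 4 mice, with 1 line per mouse and a black bar for the mean. Clca4a and Clca4c-ps go on climbing steeply from mid-villus to the tip of the clumps (medians of 34.1 and 18.3 times within a mouse), while Clca4b climbs most between crypt and mid-villus.

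Order within a zone differed between the genes. Each molecule is counted once near its end, and levels were compared as shares of the UMIs of the 3 genes together. The annotated Clca4c-ps model lacks a stretch like the 195 and 189 bases after the stop codons of Clca4a and Clca4b. Reads from Clca4c-ps RNA past its annotated end may be missed, so its share may not be on the same scale. In the crypt Clca4b held 90.8% ± 4.66 of these UMIs (SD, n = 5 mice), Clca4a 7.78% ± 4.66 and Clca4c-ps 1.43% ± 1.06. At mid-villus Clca4b still held 84.6% ± 9.09, with 11.1% ± 7.28 for Clca4a and 4.26% ± 1.95 for Clca4c-ps. At the tip Clca4a led with 52.0% ± 1.55, followed by Clca4b with 34.9% ± 2.22 and Clca4c-ps with 13.1% ± 1.91. The share of Clca4b thus fell by 49.7 percentage points from mid-villus to tip and that of Clca4c-ps was 8.85 points higher, in 5 of 5 mice each. The genes were chosen with their zone profiles in clumps known, so these shares are a description as well and carry no test.

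The single cells, from mice numbered apart, had similar shares. Among enterocyte-like cells (described below) placed at the tip, Clca4b held 39.1% ± 3.21 of the UMIs of the 3 genes, against 85.3% ± 2.26 at mid-villus (SD, n = 4 mice). The shares of Clca4c-ps were 15.1% ± 1.80 and 5.19% ± 2.08. The differences of -46.2 and 9.96 percentage points had the same sign in 4 of 4 mice. In these single cells the Clca4a share was 45.8% ± 2.14 at the tip and 9.51% ± 1.16 at mid-villus. Clca4a was ahead of Clca4b at the tip of mice 2 to 4, while in mouse 1 Clca4b held 43.7% and Clca4a 43.3%.

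**Figure D3:**
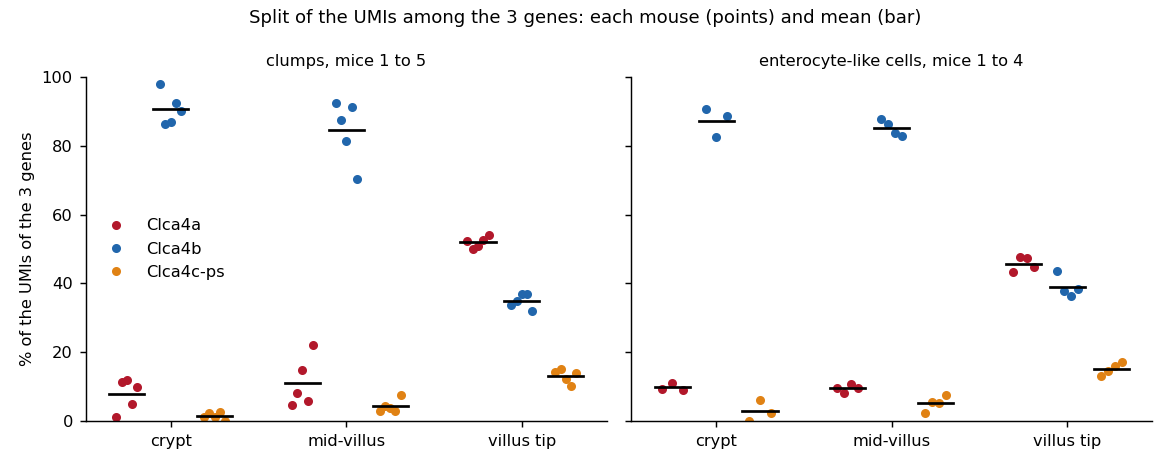
Share of each gene in the UMIs of Clca4a, Clca4b and Clca4c-ps together (y axis, percent) by zone, in clumps and in enterocyte-like single cells, with 1 point per mouse with at least 10 such UMIs and a bar for the mean. Clca4b holds most UMIs in the crypt and at mid-villus in every mouse shown, and Clca4a holds the largest share at the tip of all 5 clump mice.

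Because Clca4a and Clca4c-ps share windows, the part of their joint UMIs that was counted as Clca4c-ps was followed as well. It was 20.1% ± 2.52 at the tip of the clumps (16.3 to 23.0%, n = 5 mice) and 30.2% ± 6.96 at mid-villus (20.4 to 37.5%), and in each of the 5 mice the tip had the smaller part. Pooled over mice, 20.4% of 4626 UMIs at the tip were counted as Clca4c-ps (exact 95% binomial interval 19.3 to 21.6%), 23.6% of 1070 at mid-villus (21.0 to 26.2%) and 25.3% of 269 in the crypt (20.2 to 30.9%). In single cells the part was 24.8% ± 2.12 at the tip and 34.5% ± 10.7 at mid-villus (n = 4 mice). It was smaller at the tip in mice 2 to 4 but not in mouse 1, which had 23.1% at the tip and 20.0% at mid-villus, from 10 UMIs. Pooled it was 25.02% of 5263 UMIs at the tip (23.9 to 26.2%) and 38.9% of 203 at mid-villus (32.2 to 46.0%). The intervals cover counting error only. The part thus stayed between 16.3 and 37.5% in each mouse in both villus zones of the clumps. Whether the Clca4c-ps UMIs came from Clca4c-ps RNA or from Clca4a reads was not tested.

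Detection in the same wells was in the same relation. Of 809 tip clumps, 567 held a Clca4a UMI, 576 a Clca4b UMI and 382 a Clca4c-ps UMI. Only 17 tip clumps held Clca4c-ps without Clca4a, and 365 held both. Clca4c-ps was seen in 64.4% of tip clumps with Clca4a and in 7.02% of those without. Clca4b was seen in 78.8% and 53.3%. Clumps with Clca4a were also deeper, with a median of 1492 UMIs against 1010, and the part of depth in these shares was not tested. None of the 3 genes was seen in 113 tip clumps (14.0%). In single tip cells the picture was alike: of 1438 cells, 762 held Clca4a, 975 Clca4b and 544 Clca4c-ps, and Clca4c-ps was seen in 62.6% of cells with Clca4a and in 9.91% of those without (median 3141 and 2352 UMIs). A single cell held up to 48 UMIs of Clca4a, 27 of Clca4b and 18 of Clca4c-ps. At mid-villus 57 of the 160 clumps with Clca4c-ps had no Clca4a UMI.

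A finer scale gave the same order of rise. Clumps were ranked by the share of tip landmark UMIs among all landmark UMIs and cut into 6 bins of 980 or 981 clumps. From the lowest to the highest bin, the mean Clca4a level was 0.287, 0.636, 0.860, 1.92, 9.80 and 100% of its value in the top bin, which was 1845 ± 405 CPM (SD, n = 5 mice). Clca4b ran through 3.13, 6.76, 17.4, 35.6, 54.7 and 100% of its top value of 1417 ± 367 CPM. Clca4c-ps followed Clca4a, with 0.105, 0.092, 0.941, 2.66, 10.7 and 100% of 479 ± 115 CPM. Clca4b was thus at 35.6% of its top value in the fourth bin, where Clca4a and Clca4c-ps were still under 3% of theirs. In enterocyte-like single cells, binned the same way, Clca4b was at 31.7% of its highest bin in the lowest bin, peaked in the fifth and stood at 92.5% in the sixth, a difference from the fifth within the spread over mice (976 ± 413 and 903 ± 215 CPM, n = 4). Clca4a went from 0.938% in the lowest bin to 73.8% in the fifth and its peak of 1922 ± 728 CPM in the sixth. Clca4c-ps went from 2.67% to 95.4% and its peak of 534 ± 206 CPM.

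**Figure D4:**
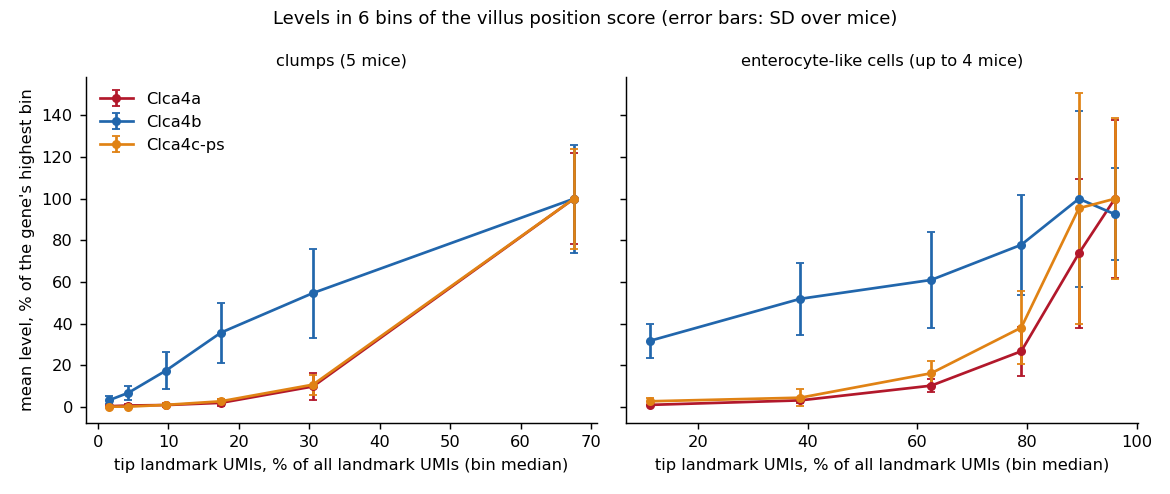
Mean level of each Clca4 gene as percent of its highest bin (y axis) against the median share of tip landmark UMIs in 6 equal-count bins (x axis, percent), in clumps (n = 5 mice) and enterocyte-like single cells (n = 4 mice, 3 in the lowest bin), with error bars of 1 SD over mice. In both, the curve of Clca4b lies above those of Clca4a and Clca4c-ps in the lower bins.

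Mouse 6, whose clumps were sorted above 2n and which entered no mean, had the same order of zones for Clca4a and Clca4c-ps but not for Clca4b. Its 76 tip clumps held Clca4a at 1297 CPM, Clca4b at 818 CPM and Clca4c-ps at 253 CPM. Its 69 mid-villus clumps held 63.3, 925 and 22.0 CPM, and its 99 crypt clumps 5.97, 164 and 5.97 CPM, the Clca4a and Clca4c-ps crypt values resting on 4 UMIs each. Clca4b was higher at mid-villus than at the tip in this mouse, unlike in mice 1 to 5. At its tip the 3 genes held 54.8, 34.6 and 10.7% of their joint UMIs, within or close to the range of the other 5 mice.

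Clump size was not used to choose the genes, and larger clumps were compared with pairs at the tip. In mouse 1 Clca4a stood at 723 CPM in 28 larger clumps and 1718 CPM in 105 pairs. In mouse 4 it stood at 2854 CPM in 32 larger clumps, against 420 CPM from 2 UMIs in 6 pairs. In mouse 5 it stood at 2355 CPM in 57 larger clumps and 1594 CPM in 11 pairs. Mice 2 and 3 had pairs only, at 2733 and 2379 CPM. The groups overlapped, and the edgeR quasi-likelihood test called no difference. The log2 change of larger clumps against pairs was 0.41 ± 0.66 (SE) for Clca4a, with a 95% interval of -0.88 to 1.71, 0.27 ± 0.70 for Clca4b (-1.10 to 1.64) and -0.27 ± 0.65 for Clca4c-ps (-1.55 to 1.02), each with an adjusted p of 0.985. Over all genes, 0 of 1007 tested (0%) were called at an adjusted p under 0.05 by edgeR and 0 by DESeq2, while 77 and 33 had an unadjusted p under 0.05. The intervals reach from -1.55 to 1.71 on the log2 scale. The sign of each change turned when single mice were left out (Clca4a -0.24 without mouse 5, Clca4b -0.24 without mouse 4 and -0.16 without mouse 5, Clca4c-ps 0.22 without mouse 1), and 55 genes were called without mouse 5 and 15 without mouse 1.

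Markers of other cell types moved along the axis in the clumps as well. The summed level of 10 goblet markers had a median over mice of 3409 CPM in the crypt (3257 to 5825), 5030 CPM at mid-villus (3707 to 16566) and 18347 CPM at the tip (7718 to 35280). The sum of 14 enterocyte markers had medians of 8419, 63969 and 69713 CPM, and 12 immune markers had medians of 8.96 (1.19 to 384), 9.67 (5.07 to 13.0) and 6.69 CPM (0 to 52.1). Medians for 8 Paneth markers were 5156, 579 and 665 CPM and for 12 markers of stem and dividing cells 794, 119 and 95.6 CPM. The mitochondrial share had medians of 5.56, 9.68 and 9.00%. The part of these cell types and of the mitochondrial share in the Clca4 levels of the clumps was not tested. In the single cells described next the goblet-like class held Clca4a at 22.6 CPM and Clca4c-ps at 6.18 CPM.

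The single cells were clustered without the Clca4 genes into 6 groups, 5 of which took a name from their markers. The 3 genes belonged to the enterocyte-like class. In its 2572 cells, led by Apoa4, Apoa1 and Apob (apolipoproteins of chylomicron assembly), Clca4a had 4088 UMIs (520 CPM), Clca4b 4725 (601 CPM) and Clca4c-ps 1402 (178 CPM). By mouse, Clca4a stood at 566, 530, 274 and 733 CPM, a mean of 526 ± 190 (SD, n = 4). Clca4b stood at 599, 620, 365 and 854 CPM (610 ± 200), and Clca4c-ps at 169, 168, 96.4 and 290 CPM (181 ± 80.4). Mouse 3 was the lowest for each gene and mouse 4 the highest, and Clca4a and Clca4b overlapped.

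The other classes held little. The 208 goblet-like cells, led by Zg16 and Fcgbp, had 11 UMIs of Clca4a, 11 of Clca4b and 3 of Clca4c-ps, that is 22.6, 22.6 and 6.18 CPM. The 1580 immune-like cells, led by Gzma and Ccl5 and almost all from mice 2 to 4, had 36, 58 and 10 UMIs (23.2, 37.3 and 6.44 CPM). The 186 tuft-like cells had 2, 8 and 2 UMIs. The 242 enteroendocrine-like cells had 0 UMIs of Clca4a and of Clca4c-ps and 3 of Clca4b, and by the limit of 3 counts, 0 of 242 cells allows a share of up to 1.24%. A sixth group of 411 cells, rich in immunoglobulin and haemoglobin mRNA and left unnamed, had 5, 18 and 1 UMIs. These values rest on few UMIs, and those of the goblet-like, immune-like and tuft-like cells overlapped over mice for each gene.

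Shares of cells with a UMI were also highest in the enterocyte-like class. Clca4a was seen in 34.2% of enterocyte-like cells (median 2808.5 UMIs per cell), 2.40% of goblet-like cells (2014 UMIs) and 1.27% of immune-like cells (836 UMIs). The immune-like cells are lymphocytes by their markers. Clca4b was seen in 57.7, 5.29 and 2.09%, and Clca4c-ps in 24.0, 0.481 and 0.443%. With each cell thinned to 500 UMIs, which left out 51 enterocyte-like, 6 goblet-like and 316 immune-like cells, Clca4a was seen in 15.5, 0.990 and 0.870%, Clca4b in 23.6, 1.49 and 1.34%, and Clca4c-ps in 7.50, 0 and 0.316%. The thinned goblet-like shares rest on 2 UMIs of Clca4a and 3 of Clca4b, and whether the UMIs in these classes came from free RNA was not tested. The family member Clca1 had the opposite distribution, with 9136 CPM in goblet-like cells, 94.7% of which held it, and 19.6 CPM in enterocyte-like cells. Clca1 is among the goblet markers that named this class and was not kept out of the clustering. Its high level there thus follows in part from how the class was defined.

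**Figure D5:**
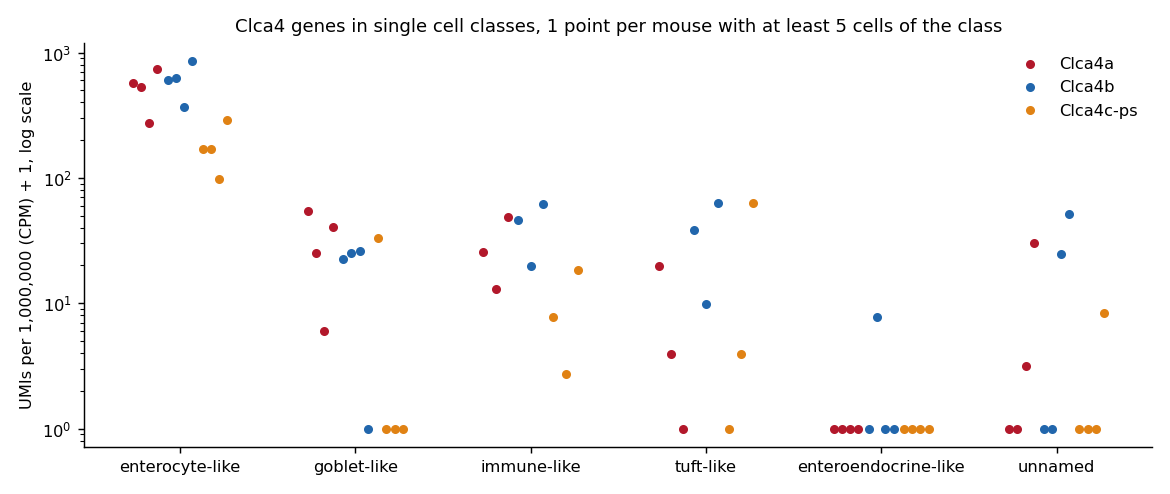
Level of the 3 Clca4 genes (y axis, CPM + 1, log scale) in the single cell classes (x axis), with 1 point per mouse with at least 5 cells of the class. The enterocyte-like points lie at 96.4 to 854 CPM, and each of the other classes is lower for each gene.

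Zones were also set within the enterocyte-like cells. The genes were chosen with earlier results of these data known, so their zone levels in single cells are given without a test. The cells were placed at crypt (393 cells), mid-villus (733) or tip (1438) by the same landmarks. Clca4a stood at 598, 1141, 878 and 1333 CPM at the tip of mice 1 to 4 and at 63.4, 43.2, 40.4 and 81.3 CPM at mid-villus. Clca4b stood at 604, 909, 672 and 1144 CPM and at 579, 465, 313 and 707 CPM. Clca4c-ps stood at 179, 347, 298 and 509 CPM and at 15.9, 30.4, 19.7 and 63.4 CPM, the first of these from 2 UMIs. The groups did not overlap for Clca4a and Clca4c-ps, while for Clca4b the mid-villus value of mouse 4 lay above the tip values of mice 1 and 3. How many of all genes separate in this way was not counted.

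In the edgeR fit over all genes, the log2 change from mid-villus to tip was 4.73 ± 0.25 (SE) for Clca4a, 3.86 ± 0.32 for Clca4c-ps and 1.30 ± 0.21 for Clca4b. Ordered by fold among the 3426 genes tested, Clca4a was the 11th, Clca4c-ps the 18th and Clca4b the 290th. This order is a description only, since the genes were chosen with their high tip level known. Landmarks that placed the cells are also among the genes ordered. The log2 changes depend on the TMM scaling of library totals. Without scaling factors they were 4.11, 3.24 and 0.67, the median of all genes moved from 0.04 to -0.60, and the calls from 683 higher (19.9%) and 683 lower (19.9%) to 167 and 1238. On the CPM scale the tip was 1.04, 1.95, 2.15 and 1.62 times mid-villus for Clca4b in mice 1 to 4, and 9.43 to 26.4 times for Clca4a. In the crypt Clca4a had 14.9, 16.1 and 14.4 CPM in mice 2 to 4, from 3, 9 and 4 UMIs, and 133 CPM in mouse 1, from 2 UMIs in 6 cells. Clca4b had 66.7, 144, 120 and 141 CPM there, from 1, 29, 67 and 39 UMIs. Clca4c-ps had 0, 0, 8.93 and 3.61 CPM, the last 2 from 5 UMIs and 1 UMI.

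The median depth of a cell ranged over mice from 2235 to 3451 UMIs at the tip, 2528.5 to 3701 at mid-villus and 1930 to 3516 in the crypt, and each cell was also thinned to 500 UMIs. A UMI of Clca4a was then seen in 25.4% of tip cells, 3.33% of mid-villus cells and 1.36% of crypt cells. For Clca4b the shares were 28.7, 22.1 and 6.79%, and for Clca4c-ps 12.5, 1.53 and 0%, the last from 0 of 368 cells, which allows a share of up to 0.815% by the same limit. In thinned tip cells the 3 genes had 906, 803 and 295 CPM.

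None of the other 5 members of the CLCA family was called higher at the tip than at mid-villus. In clumps only Clca1 and Clca3b were frequent enough to be tested. Clca1 had means of 111 ± 51.9, 314 ± 311 and 714 ± 493 CPM in crypt, mid-villus and tip clumps (SD, n = 5 mice), and without mouse 3 they were 87.7, 179 and 619 CPM. The summed goblet markers, which include Clca1 itself, had medians of 3409, 5030 and 18347 CPM in the same zones. The part of goblet cells in the Clca1 levels was not tested. In enterocyte-like single cells Clca1 had means of 27.0 ± 27.4, 22.1 ± 13.6 and 19.1 ± 12.9 CPM (SD, n = 4 mice). In clumps its log2 change was 1.52 from crypt to mid-villus (adjusted p = 0.0233 by edgeR) and 1.34 from mid-villus to tip (adjusted p = 0.0842). Clca1 was called higher at the tip with the mouse as a replicate block and without mouse 3, and its change from crypt to mid-villus was not called without mouse 3. Clca3b went the other way, with 349 ± 276 CPM in the crypt, 31.4 ± 39.2 at mid-villus and 51.4 ± 81.8 at the tip. Mouse 4 was the highest in each zone, and without it the means were 227, 14.5 and 15.1 CPM. The fit gave a log2 change of -3.62 from crypt to mid-villus (adjusted p = 0.00162). The background for these calls was 15.6% of 7031 genes higher and 26.8% lower at mid-villus than in the crypt, and 6.94% higher and 8.43% lower at the tip than at mid-villus. Without scaling factors the last 2, 488 and 593 genes, became 282 and 789. In the same fits, given with no test since they chose the genes, the log2 changes from crypt to mid-villus were 3.30 for Clca4a, 2.65 for Clca4b and 4.11 for Clca4c-ps, and from mid-villus to tip 4.57, 1.16 and 4.11.

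Of 19 listed genes of chloride and bicarbonate transport 14 were tested in the clumps. At mid-villus 6 were higher and 3 lower than in the crypt, beside 15.6 and 26.8% of all genes. With the mouse as a replicate block these were 8 (with Clcn3 and Slc26a3) and 4 (with Cftr), beside 1658 and 2374 of all 7031 genes. Guca2b and Guca2a, whose hormones uroguanylin and guanylin stimulate chloride and bicarbonate secretion, changed by 2.68 and 0.88 on the log2 scale. The exchanger Slc26a6 changed by 1.81, the scramblase and channel Ano6 by 1.82, the chloride channel Clcn2 by 1.30 and the bicarbonate cotransporter Slc4a4 by 0.93. Slc12a2, which loads chloride into secreting crypt cells, fell by 4.49, and the potassium channel Kcnq1 and the carbonic anhydrase Car4 fell by 3.02 and 1.39. From mid-villus to tip, where 6.94 and 8.43% of all genes were higher and lower, 1 of 14 was higher (Clcn2, 0.67, adjusted p = 0.0450) and 2 were lower, Ano6 (-0.94, adjusted p = 0.00824) and the chloride-bicarbonate exchanger Slc26a3 (-1.98, adjusted p = 0.00376). With the mouse as a replicate block Cftr was called lower too, where 955 of all 7031 genes were higher and 1243 lower. The median log2 change of the list was 0.02, beside -0.15 over all genes. In the single cells, beside 19.9% of all genes in each direction, 1 of 10 was higher at the tip (Clcn2, 0.81, adjusted p = 0.0292) and 2 were lower, Slc26a3 (-1.68, adjusted p = 0.0240) and the chloride channel Cftr (-1.69, adjusted p = 0.0245). With the mouse as a replicate block 2 were higher and 3 lower, beside 847 and 838 of all 3426 genes. The single-cell calls rested on single mice: none of the 10 was called without mouse 1, nor any of 11 without mouse 2, Clcn2 was not called without mouse 3, and Slc26a3 and Cftr were not called without mouse 4. The Clcn2 call at the tip of the clumps was absent without mouse 1, 2 or 3 and without the low-count filter, and the Ano6 call without mouse 2 and without that filter. From crypt to mid-villus Guca2a was not called without mouse 1 or with DESeq2 size factors, nor Car4 without mouse 3 or 5. Without scaling factors Clcn2 was called at the tip in neither clumps nor single cells, and Guca2a was not called at mid-villus. In that fit 6 of 10 genes were lower at the tip of the single cells, beside 1238 of all 3426.

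Genes known for high levels at the villus tip moved with Clca4a. Of 18 listed, 15 were higher at the tip than at mid-villus in clumps and none lower, beside 6.94% of all genes, and 12 of the 18 are landmarks that placed the clumps, so their rise follows in part from the placing. The adenosine-degrading enzyme Ada changed by 5.71 on the log2 scale, the membrane protein gene Pmp22 by 3.48, the apolipoprotein gene Apoa4 by 2.46, the keratin gene Krt20 by 1.64 and Apob, not a landmark, by 1.42. Apoa1, Fos and Cdkn1a had changes of 1.03, 0.96 and 0.80 and did not pass (adjusted p = 0.0699, 0.107 and 0.141). With the mouse as a replicate block all 18 passed, where 955 of all 7031 genes were called higher. In single cells 17 of 17 tested were higher, beside 19.9% of all genes, and the same landmarks placed these cells. It was 16 of 17 without mouse 1 or 4, where Apoa1 was not called, and 15 of 17 without mouse 2, where Apoa1 and Cdkn1a were not. From crypt to mid-villus 12 of 18 were higher, Apoa4 by 4.36 and Pmp22 by 4.57, beside 15.6% of all genes. Without mouse 3 it was 9 of 17, and Ada, Nt5e and Gprc5a were not called. Without scaling factors 14 of 17 were called at the tip of the single cells, without Apoa1, Apob and Cdkn1a, and 14 of 18 at the tip of the clumps, without Krt20. The Krt20 call in clumps was also absent without mouse 1 or 2, and without the low-count filter 13 of 18 were called, without Krt20 and Apob.

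Genes whose profile over the 15 mouse-by-zone sums of clumps was most like each gene were ranked by Pearson's r of log2(CPM + 5) among 12525 genes. The sums share mice and the landmark zones, so the values are a description. For Clca4a the nearest were Ada (0.970), Pmp22 (0.969), Apol9b (0.966) and the lipid droplet gene Cidec (0.966), each of them a tip landmark. For Clca4c-ps they were Cidec (0.978), Pmp22 (0.974), the ectonucleotidase Enpp3 (0.972) and Apol9b (0.967). For Clca4b a different set led, none of them a landmark: Apoc2 (0.973), a cofactor of lipoprotein lipase, Tlcd2 (0.970), the cholesterol uptake protein gene Npc1l1 (0.970), the creatine transporter Slc6a8 (0.970) and the ectoenzyme gene Bst1 (0.968). The 3 genes with each other stood at 0.982 for Clca4a and Clca4c-ps, 0.888 for Clca4a and Clca4b, and 0.904 for Clca4b and Clca4c-ps. Pmp22, Apol9b and Cidec are near both Clca4a and Clca4c-ps, and none of the 3 is among the genes named for Clca4b.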

How the data were processed

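MARS-seq libraries came from 45 plates of clumps and 44 plates of single cells. The authors demultiplexed reads with bcl2fastq 2.15.0.4 (submitters' processing notes), aligned them to the GRCm38 build, took gene models from Ensembl and counted UMIs for every gene in every well. The deposited values are whole-number UMI counts in 1 table for clumps (17162 wells) and 1 for single cells (16850 wells), before the background subtraction the methods describe, which was not applied here. Both tables use the same 384 well barcodes on every plate, as the plate design sets, so each well was identified by plate and barcode.

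A clump was kept with over 500 UMIs from 200 or more genes and a mitochondrial share of up to 30%, and the 2% of clumps poorest in landmark UMIs were dropped. Each took the zone (30 crypt, 10 mid-villus and 29 tip landmarks) whose list correlated best with its landmark vector. A single cell was kept with 200 to 7000 UMIs from 150 to 1500 genes and a mitochondrial share of up to 40%, which left 5199 cells. They were clustered with scanpy 1.11.5 (2000 variable genes, 25 components, 20 neighbours, Leiden resolution 0.1), and a cluster was named from at least 3 markers among its 50 leading genes. Doublets were limited only through these upper bounds, without a caller.

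UMIs were summed by mouse and zone or class (at least 5 wells), divided by the sum over all genes and given as CPM. Sums were tested over mice with edgeR 4.0.16 (TMM, filterByExpr, quasi-likelihood, Benjamini-Hochberg at 0.05). An exact permutation test of the shares was run with scipy 1.17.1, but its p-values, like those of the 3 genes between zones, are not given, since the genes were chosen with earlier results of these data known. DESeq2 1.42.0, its size factors, no filter, a replicate block, other zone and class rules, thinning to 500 UMIs and leaving out each mouse were alternatives. On simulated counts 100 genes were changed by 2 on the log2 scale and another 100 by 3. Of the changes by 2, 82% were recovered for the single-cell comparison, 86% for clump size, 86% for tip against mid-villus clumps and 94% for mid-villus against crypt. For changes by 3 the shares were 82, 96, 96 and 96%, and 8, 7, 3 and 7 unchanged genes were called. The simulated counts had the same dispersion for all genes and no difference between mice, so these shares do not give the power of the real fits.

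Sums of 1 number within a table carry the number of 1 mouse in the labels, although the single-cell plates of mouse 2 carry 2 ages. After group means were removed they correlated at 0.218 to 0.404 between tip and mid-villus clumps, 0.228 to 0.508 between single-cell zones, and 0.0252 to 0.403 between clump sizes. The depth of a value is the UMI total of its sum. Intervals of pooled shares are exact binomial (Clopper-Pearson).

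Named were the 3 Clca4 genes, counts of 3 gene lists with the 2 to 6 members highest in tip clumps, and the 5 genes of at least 50 UMIs most like each Clca4 gene, of which 1 is not reported here. Slc12a2, Kcnq1, Car4, Slc26a3, Cftr, Clcn3, Fos, Cdkn1a, Nt5e and Gprc5a were named after their values were seen. The lists were chosen with such results known as well. Mouse 6 was described only. The zone fits in clumps, the test of shares in single cells and the fit without scaling factors were added after the data were seen.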

Additional observations from a re-analysis of the deposited data

Results flagged for a closer look

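Of 33 groups of 4 or 5 mice checked, 4 had a mouse that stood far from the others, where chance gives about 1 in 20. In crypt enterocyte-like cells Clca4a stood at 133 CPM in mouse 1, beside 14.4 to 16.1 CPM in the other mice; it rests on 2 UMIs in 6 cells. Clca4b in enteroendocrine-like cells stood at 6.77 CPM in mouse 2 (3 UMIs) and at 0 in the others. Clca4b in goblet-like cells was at 0 in mouse 4 and at 21.3 to 24.9 CPM in the others. Clca4c-ps in goblet-like cells stood at 32.0 CPM in mouse 1 (3 UMIs) and at 0 in the others. Each of these values comes from few UMIs.

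The clumps of mouse 6, which entered no mean, held the 3 genes at the tip at 1297 CPM for Clca4a, 818 CPM for Clca4b and 253 CPM for Clca4c-ps, above the 20.0 CPM that a floor of 3 UMIs gives at its depth.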

How the results depend on the processing

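Of 590 alternative values, 538 were taken as unchanged. They kept direction and side of the threshold, stayed within the spread or, for counts of genes, stayed close to the main count. Lists with no gene called in either fit are among them. Thinning each clump to 500 UMIs gave 3.98 CPM for Clca4c-ps in the crypt, and 200.3 CPM for Clca4a and 63.7 for Clca4c-ps at mid-villus. Zoning by the largest landmark sum gave 1686 CPM for Clca4a and 426 for Clca4c-ps at the tip, and larger clumps alone gave 367 CPM for Clca4c-ps there. The share differences of -49.7 and 8.85 points were the same with the mouse as a replicate block, which pairs the same values, and in larger clumps alone, of 3 mice, they were -47.9 and 5.15 points. Classing cells by marker sums gave Clca4a 8.16 CPM in enteroendocrine-like and 7.94 in immune-like cells and Clca4b 14.5 in immune-like cells. Thinned cells gave 35.1 CPM for Clca4a and 119.9 for Clca4b in tuft-like cells, as means over 3 mice of 6 cells or more from 1 UMI and 3 UMIs in all, beside 11.2 and 33.5 CPM with the cells pooled. With CPM + 1 in place of CPM + 5, 3 of the 5 nearest genes were shared for Clca4b and for Clca4c-ps.

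Without the filter on low counts, 4 genes were called between clump sizes and 643 between tip and mid-villus clumps, and the replicate block called 2198 in the latter, beside 1081. The replicate block called none of the 3 genes with clump size, as without it. Leaving out 1 mouse at a time gave log2 changes with clump size of -0.24 to 0.84 for Clca4a, -0.24 to 0.63 for Clca4b and -1.04 to 0.22 for Clca4c-ps, reversed at -0.24 (Clca4a, without mouse 5), -0.24 and -0.16 (Clca4b, without mice 4 and 5) and 0.22 (Clca4c-ps, without mouse 1). It gave 0 to 55 genes called for clump size, 809 to 1296 for single-cell zones (809 without mouse 2), 416 to 1215 for tip against mid-villus (416, 419 and 446 without mice 1, 2 and 3) and 1921 to 3353 for mid-villus against crypt (1921 without mouse 3). DESeq2's size factors moved the median of all genes from -0.13 to -0.26 for mid-villus against crypt and from 0.12 to -0.02 for clump size. Without scaling factors, a fit added after the data were seen, the single-cell log2 change of Clca4b was 0.67, beside 1.30. The cause of these shifts was not tested. UMIs per zone limit the crypt values of Clca4a and Clca4c-ps and all classes but the enterocyte-like one.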
